A study of Mus musculus with 15 samples.

Results

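This comparison sets RNA captured from the cerebellum of adult mice against RNA captured at weaning. Its members are 6 of the 15 arrays of the series, the 3 titled P56 and the 3 titled P21 (56 and 21 days after birth), chosen by their titles and compared across all 22092 probe sets. The other arrays of the series, at P0, P7 and P15 with 3 each, are used for the shared estimate of spread and to show where a level stood earlier.

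Mice of every age carried the same transgene, Tg(Pcp2-L10a-Egfp), so the P21 group is a younger group of the same genotype and not a group without the transgene. The Pcp2 promoter, active in Purkinje cells, drives a ribosomal protein fused to a green fluorescent tag. Ribosomes were pulled from homogenates of pooled cerebella with antibodies against the tag, a method called translating ribosome affinity purification, and the attached RNA was hybridised to Affymetrix arrays. The labels give no number of animals per pool, no sex, and no scan date or batch, so age and any batch that moves with it cannot be told apart. Unpurified cerebellar RNA was not used here, so no value is an enrichment over tissue, and fewer cells of a type cannot be told apart from less RNA per cell. Values are deposited signals on a log scale whose base was taken as 2, and a change is P56 minus P21.

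Purkinje cells are the inhibitory output neurons of the cerebellar cortex. By weaning their dendrites, parallel fibre synapses and single climbing fibre input are largely in place, and the period that follows is one of refinement rather than of growth. Capture through a tagged ribosome enriches for transcripts of the tagged cells, and RNA of other cells is known to carry over in part.

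The 3 arrays of each age were close to each other, with a mean correlation over probe sets of 0.9968 at P21 and 0.9948 at P56, and the ages correlated at 0.9669, below the 0.9936 of P15 with P21. Array medians were 7.82 to 7.86 at P21 and 7.59 to 7.61 at P56, and the mean of the 3 medians was 0.23 lower at P56. The median change of single genes was -0.03. Of all probe sets, 56.4% were called in the limma fit (adjusted p under 0.05), 22.1% higher at P56 and 34.3% lower. Past a log2 change of 1, the shares were 1.95% higher (430 probe sets) and 5.61% lower (1240). Counted by gene, with 1 probe set for each of 19500 genes, 21.1% were called higher and 35.1% lower, and the 3 arrays of the ages did not overlap for 54.6%. The split depended on scaling. Of the called probe sets 39.3% were higher as deposited, 50% after quantile normalization and 69.1% with all array medians set to 0, and that last setting moved the median change of probe sets to 0.21. By gene, 49.3% were called higher and 23% lower with array medians set to 0. With a trend over gene span removed, described below, the shares were 25.7% and 31.5%. Counts below are therefore read against the shares of the same setting. The labelled replicates are not stated to be separate pools, so p-values measure the spread between arrays, and an exact permutation test of 3 arrays against 3 cannot give a p below 0.1.

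Purkinje cell markers moved little. Genes named below follow a rule given with the processing, except Th, Xbp1, Atf6, Atf4, Ddit3, Trib3, Asns, Chac1, Calr, Canx, Hspa5, Derl3, Syvn1, Dnajc3, Pdia6, Hsp90b1, Hmgcs1, Dhcr7, Pmvk, Gabra6, Slc12a5, Glrb, Scn8a, Scn1a, Rmrp, Rpph1, Rnu12, n-R5s136 and the sex-linked genes, which were chosen after their values were seen. Cacng2, Gria1, Gria2, Gria3 and Gria4 were also chosen after their values were seen. The mean level of 26 measured markers was 12.44 to 12.50 over the P21 arrays and 12.55 to 12.57 over the P56 arrays. Of the 26, 11 were called higher and 7 lower, with a median change of 0.10 and a range from -0.53 to 0.70. With array medians set to 0 the split was 17 higher and 2 lower, against 49.3% and 23% of all genes. Pcp2, the gene whose promoter drives the tag, was 13.26, 13.20 and 13.20 at P21 and 13.68, 13.75 and 13.69 at P56. All P56 arrays lay above all P21 arrays, a rise of 0.48 (SE 0.06, limma adjusted p 2.1e-06). Rpl10a, the gene of the ribosomal protein that is tagged, was 12.65, 12.63 and 12.57 at P21 and 12.54, 12.51 and 12.56 at P56, and its change of -0.08 was not called.

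Genes that handle calcium and inositol signals moved in both directions. Of 31 genes of inositol trisphosphate and mGluR1 signalling 8 rose and 16 fell, with a median of -0.14, a split of 11 and 6 with array medians set to 0 and of 12 and 10 with the gene span trend removed. Of 21 calcium buffers, pumps and exchangers 2 rose and 14 fell, with a median of -0.38. The largest falls were in Necab1 (-1.52), Slc24a3 (-1.46), Ocm (-1.31), Slc8a1 (-1.14), Necab2 (-1.01) and Atp2b1 (-1.01). The kinases of inositol trisphosphate Itpkb and Itpka had changes of -1.15 and -0.27, both called. After Itpkb, the largest falls of the inositol list were in Orai2 (-0.94), Ryr2 (-0.75) and Daglb (-0.68). Calb1, the calcium buffer calbindin, was 13.40, 13.18 and 13.29 at P21 and 13.73, 13.72 and 13.81 at P56, a rise of 0.47 (SE 0.08, limma adjusted p 0.000115). Car8, a protein that binds the inositol trisphosphate receptor, rose by 0.35, and Inpp5a, a phosphatase that removes inositol trisphosphate, by 0.30. The G protein subunit Gng13 rose by 0.44 and the calmodulin regulator Pcp4 by 0.30.

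The genes of inhibitory transmission among the Purkinje cell markers split. Gad2, which makes GABA, rose by 0.52, and Slc32a1, the transporter that loads GABA into vesicles, rose from 10.54, 10.55 and 10.66 to 11.13, 10.97 and 11.29, a change of 0.55 (SE 0.07, limma adjusted p 6.96e-06). Gad1, the other enzyme of GABA synthesis, fell by 0.27, a call that was lost with array medians set to 0 (change -0.03, limma adjusted p 0.638). Syt2, a calcium sensor of fast release, fell by 0.53 and the Notch ligand Dner by 0.44, the latter not called once the gene span trend was removed (change -0.15, limma adjusted p 0.0819). Aldoc, the enzyme known as zebrin II, Slc1a6, a glutamate transporter, and Foxp2, a transcription factor, had P56 arrays that overlapped those of P21, and none was called as deposited. Scaling changed this. Foxp2 was called higher after quantile normalization (0.20, limma adjusted p 0.0461), with array medians set to 0 (0.27, limma adjusted p 0.0113) and with the gene span trend removed (0.32, limma adjusted p 0.0035). Aldoc was called lower after quantile normalization (-0.18, limma adjusted p 0.00943) and higher with array medians set to 0 (0.20, limma adjusted p 0.00817), where Slc1a6 was called higher too (0.19, limma adjusted p 0.0416).

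Of 31 transcription factors known in Purkinje cells, 8 were called higher and 15 lower, with a median change of -0.11. With array medians set to 0 the split was 15 and 4, against 49.3% and 23% of all genes, and the median 0.12. Lhx1, a LIM homeodomain factor of Purkinje cell development, was 11.35, 11.32 and 11.10 at P21 and 11.84, 12.03 and 12.11 at P56, a rise of 0.73. Hes3, a repressor of the Hes family, rose by 0.79, and Esrra, a nuclear receptor that drives mitochondrial genes, by 0.76. Bhlhe41, a repressor in the circadian clock, went from 9.49, 9.19 and 9.27 to 10.29, 10.24 and 10.42, a rise of 1.00 (SE 0.10, limma adjusted p 1.79e-07). Lmo3, a LIM-only cofactor, moved the other way, from 9.13, 9.15 and 9.12 to 7.29, 7.15 and 6.81, a fall of 2.05 on the log2 scale. In these 5 genes the arrays of the ages did not overlap.

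**Figure D1:**
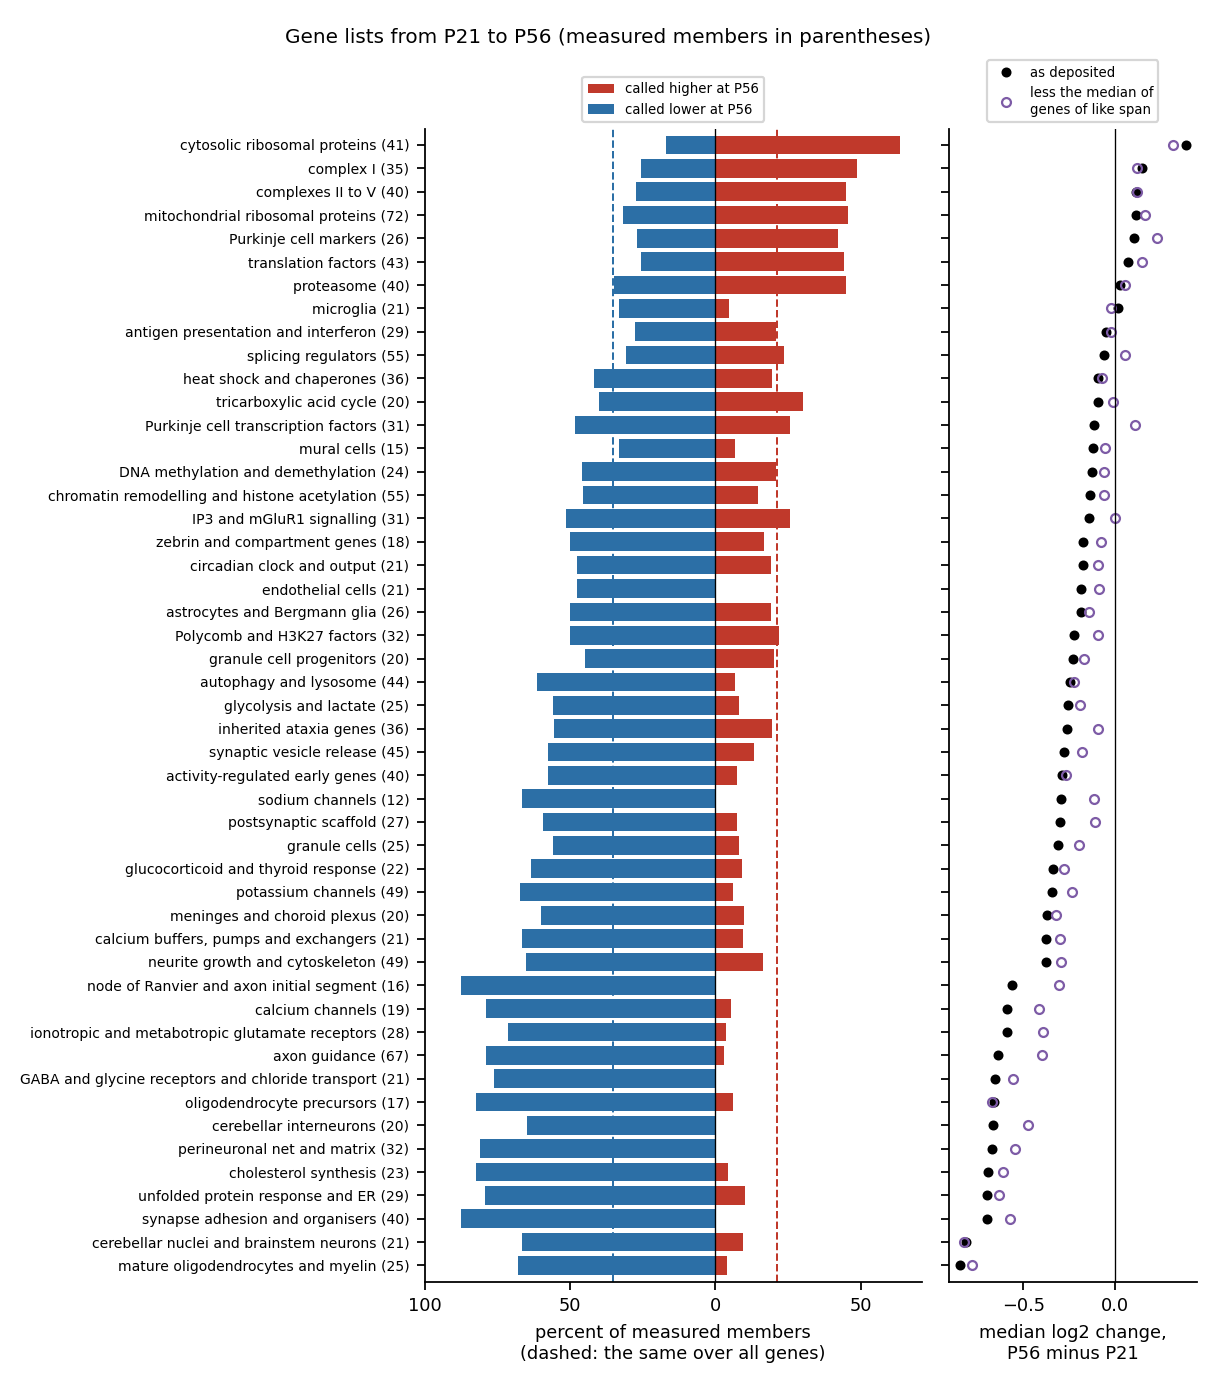
Pathway and cell type lists with at least 10 measured members, in order of their median change; families gathered by symbol (small RNAs, histones, chemosensory receptors) are not drawn. Bars at left give the percent of measured members called higher (red) or lower (blue) at P56, with dashed lines at the shares over all genes (21.1% and 35.1%), and points at right give the median log2 change as deposited (black) and after subtraction of the median of genes of like span (open). Of the lists drawn, ribosomal and respiratory ones lie at the top, and myelin, brainstem neurons, synapse adhesion, the unfolded protein response and cholesterol synthesis at the bottom.

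Receptors for inhibitory transmitters fell. GABA-A receptors are pentamers whose alpha subunits set their kinetics, and Purkinje cells of the adult are known for the alpha 1 subunit. Of 21 measured genes of GABA and glycine receptors and chloride transport, 0 were called higher and 16 lower in limma, against 35.1% of all genes lower, with a median change of -0.66. As deposited, no member of this list was higher at an unadjusted limma p under 0.05 either. The same held for sodium channels, synapse adhesion, perineuronal nets and the node of Ranvier (0 in each), and in the interneuron list 1 was. These zeros depended on scaling. With array medians set to 0, members called higher in these 6 lists, in that order, were 2, 1, 2, 3, 0 and 3, against 49.3% of all genes. With the gene span trend removed they were 2, 0, 0, 1, 1 and 1, against 25.7%. Gabra3, an alpha subunit of early development, was 10.07, 10.01 and 10.12 at P21 and 7.06, 7.12 and 7.36 at P56. The arrays lay far apart, a fall of 2.88 on the log2 scale (SE 0.09, limma adjusted p 6.09e-13), or 7.37-fold. Gabra2, another alpha subunit, fell by 2.38 and Gabrg3, a gamma subunit, by 1.86. Gabra6, the alpha subunit of granule cells, stood at 11.72 and 11.69, and Slc12a5, the chloride extruder, at 11.88 and 11.89, with neither called.

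Glycine receptor genes fell by unlike amounts, and only Glra1 fell further than Gabra3. Glrb had the smallest fall, 0.66, from a mean of 12.22 to 11.56. Glra1, the adult alpha subunit of the spinal cord and brainstem, was 10.56, 10.45 and 10.88 at P21 and 6.47, 6.96 and 6.83 at P56. This fall of 3.87 (SE 0.13, limma adjusted p 7.74e-13) was the largest over all 19500 genes. At P15 the mean of Glra1 was 9.19, so its level rose up to P21 before it fell. Glra2, the fetal alpha subunit, fell by 1.99 and Glra3 by 1.72, and both ended under the P56 lower quartile (5.98), where a signal is not shown to be above background.

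Several of the largest falls were in genes known from neurons other than Purkinje cells. Sst, the peptide somatostatin of Golgi and other interneurons, was 10.55, 10.63 and 10.77 at P21 and 7.50, 7.55 and 7.43 at P56, a fall of 3.16 (SE 0.09). Lamp5, a membrane protein of forebrain interneurons, went from 9.63, 9.53 and 9.90 to 5.85, 6.19 and 6.23, a fall of 3.60. Slc17a6, the glutamate transporter of cerebellar nuclei and brainstem, went from 9.63, 9.56 and 9.82 to 7.11, 7.41 and 7.61, a fall of 2.29. No array of one age reached the range of the other in these 3 genes, and the P15 means were 9.36 for Sst, 7.79 for Lamp5 and 8.70 for Slc17a6, below P21 in each case.

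Serotonin and noradrenaline genes moved with them. Tph2, which makes serotonin, fell by 2.24, and the vesicular monoamine transporter Slc18a2 also fell (change -2.27). The decarboxylase Ddc fell by 2.58 and Dbh, which makes noradrenaline, fell by 1.64. In the whole list for cerebellar nuclei and brainstem neurons, 14 of 21 measured members were called lower and 2 higher, with a median change of -0.81, and 3 members were below the lower quartile at both ages. The mean level of that list ran from 7.28 to 7.49 over the P21 arrays and from 6.44 to 6.51 over those of P56, with 6.845 as its P15 mean. One exception was Th, tyrosine hydroxylase, which some Purkinje cells are also known to express. It rose from a mean of 9.79 to 11.06, a change of 1.27 (SE 0.12, limma adjusted p 6.32e-08).

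Many markers of other cerebellar cells were lower at P56 too. Of 25 myelin and mature oligodendrocyte genes, 17 fell and 1 rose, with a median change of -0.85. Mog, a myelin surface protein, was 10.47, 10.52 and 10.77 at P21 and 8.58, 8.26 and 8.56 at P56, a fall of 2.12 with no overlap, and Mbp, the main basic protein of myelin, fell by 1.58. Of 17 genes of oligodendrocyte precursors 14 fell and 1 rose. Of 20 interneuron genes 13 fell and 0 rose in limma, and their mean level went from 8.94 to 9.16 over the P21 arrays to 7.995 to 8.12 over those of P56. Of 25 granule cell genes 14 fell (56%) and 2 rose (8%), and of 26 genes of astrocytes and Bergmann glia 13 fell (50%) and 5 rose (19.2%). Of all genes 35.1% were lower and 21.1% higher. With array medians set to 0 the granule cell split was 5 higher and 10 lower, with a median of -0.077. The astrocyte split was then 8 higher and 11 lower, with a median of 0.049. Microglia had 7 of 21 genes lower and 1 higher, near the 35.1% of all genes, with a median of 0.02 that had a value of -0.095 without P21 replicate 1. With array medians set to 0 the microglial split turned to 11 higher and 3 lower, with a median of 0.25. Of all genes 49.3% were higher and 23% lower in that setting.

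As deposited, these marker lists, apart from microglia, moved in the same direction as the receptor and synapse genes of the comparison. The oligodendrocyte list averaged 9.94 to 10.12 over the P21 arrays and 9.14 to 9.26 over those of P56, with 9.68 as its P15 mean. The part of other cells' RNA in the falls described here was not tested.

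**Figure D2:**
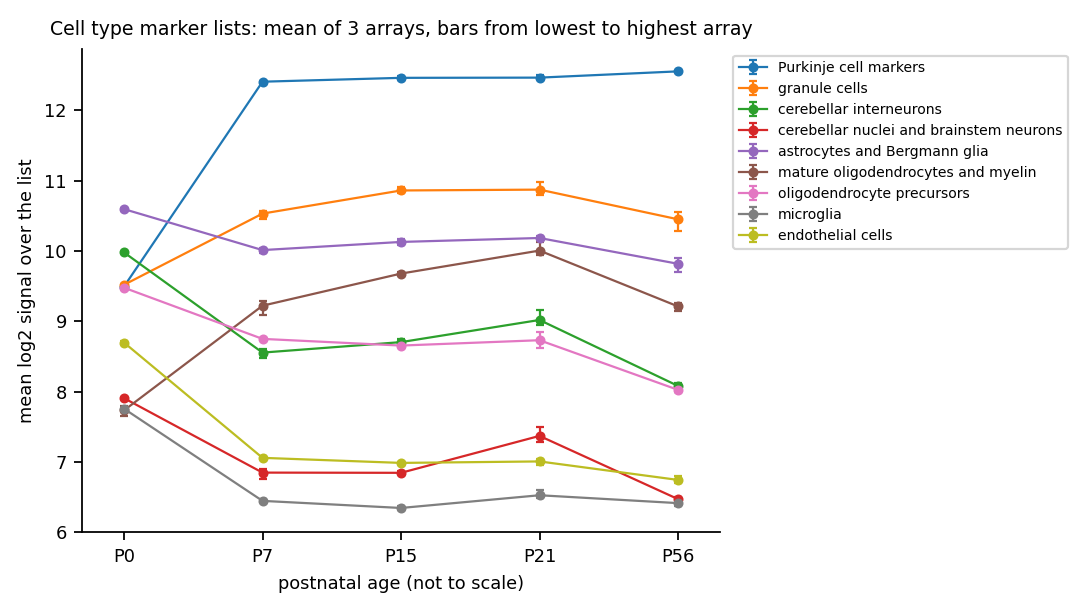
Mean log2 signal of 9 marker lists at each age, as the mean of 3 arrays with bars from the lowest to the highest array; ages are evenly spaced and not to scale. From P21 to P56 the Purkinje cell list goes from 12.47 to 12.55, while the lists for brainstem neurons (7.37 to 6.47), interneurons (9.02 to 8.08) and myelin (10.01 to 9.21) go down.

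Choroid plexus genes set 1 array apart. Ttr, the thyroxine carrier made by choroid plexus, was 12.45, 12.37 and 12.58 at P21 and 11.12, 12.89 and 10.97 at P56. The second P56 array was above every P21 array, and the other 2 were below. Its fall of 0.81 was called (limma adjusted p 0.0358), was 1.43 without that array (limma adjusted p 1.25e-09), and was not called without P56 replicate 1 (change -0.54, limma adjusted p 0.18) or replicate 3 (change -0.46, limma adjusted p 0.215). It was not called either without any one of the P21 arrays, with limma adjusted p from 0.0505 to 0.0995. Kcnj13, a potassium channel of the same epithelium, was likewise 9.16 in the second P56 array and 6.60 and 6.96 in the others. Its fall of 1.34 (limma adjusted p 0.0109) became 2.14 without that array. The call was lost without P56 replicate 1 (change -0.86, limma adjusted p 0.0788), P56 replicate 3 (change -1.03, limma adjusted p 0.0654) or P21 replicate 3 (change -1.17, limma adjusted p 0.0522).

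Most genes of ion channels and excitatory receptors were lower. Of 28 genes of glutamate receptors and their auxiliary proteins 20 fell and 1 rose, with a median of -0.59. The 1 that rose was Cacng2 (0.59), an auxiliary subunit of AMPA receptors and not a receptor subunit. Of the AMPA receptor subunits Gria1 fell by 0.29, while Gria2, Gria3 and Gria4 were not called (changes -0.12, -0.05 and -0.13). Grm5, a metabotropic receptor of immature Purkinje cells and of interneurons, was 8.95, 9.01 and 9.20 at P21 and 6.97, 6.83 and 6.84 at P56, a fall of 2.17 (SE 0.07, limma adjusted p 8.92e-13) with no overlap. The NMDA receptor subunits Grin3a, Grin2b and Grin2d fell by 1.59, 1.25 and 1.11. Of 19 genes of calcium channels and their auxiliary subunits 15 fell and 1 rose, which was again Cacng2, a member of both lists. Among the falls were the R-type channel Cacna1e (-1.59), the N-type channel Cacna1b (-1.49) and the L-type channel Cacna1d (-1.23).

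Of 12 sodium channel genes 8 fell and 0 rose in limma. The falls were uneven. Scn3b, a beta subunit of young neurons, was 8.80, 8.75 and 9.04 at P21 and 6.61, 6.68 and 6.59 at P56, a fall of 2.24 with no overlap. Scn2a, the channel of early axons, fell by 1.83, while Scn8a, the main channel of repetitive firing in Purkinje cells, fell by 0.20 (limma adjusted p 0.0362) with overlapping arrays, and Scn1a, at 10.54 and 10.45, was not called. Of 49 potassium channel genes 33 fell and 3 rose. Kcnk9, a leak channel of granule cells, fell by 2.35, and Kcnip2, a partner of A-type channels, by 2.07.

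Of 40 genes of synapse adhesion, 35 were called lower and 0 higher in limma, with a median of -0.70. Lgi1, a secreted organiser of excitatory synapses, went from 10.86, 10.84 and 11.13 to 8.97, 9.14 and 9.47, a fall of 1.75 (SE 0.11, limma adjusted p 4.54e-10). Tenm1, a teneurin, fell by 1.62, Cbln2, a cerebellin, by 1.55, and the receptor phosphatases Ptprf and Ptprd by 1.48 and 1.28. Lrrc7, a scaffold of the postsynaptic density also called densin, was 8.81, 8.74 and 9.11 at P21 and 5.76, 5.78 and 5.56 at P56. This fall of 3.19, with no overlap, ended below the lower quartile of the arrays.

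Axon guidance genes showed the same direction, with 53 of 67 lower and 2 higher and a median of -0.64. Sema5a, a transmembrane semaphorin, fell by 1.79, the semaphorin receptors Plxna2 and Plxna1 by 1.56 and 1.52, and the repellent Slit2 by 1.54. Of 49 genes of neurite growth and the cytoskeleton 32 fell and 8 rose. Dpysl3, a collapsin response mediator, fell by 2.12 and Dbn1, the spine actin protein drebrin, from 11.66, 11.67 and 11.95 to 9.94, 9.83 and 9.87, by 1.88 (limma adjusted p 4.15e-12). Of 32 genes of perineuronal nets and matrix 26 fell and 0 rose in limma. Vcan, the proteoglycan versican, fell by 2.11, Tnr, tenascin-R, by 1.85 and Ncan, neurocan, by 1.73. At the node of Ranvier and initial segment 14 of 16 fell, with the spectrin Sptbn1 going from 12.14, 12.10 and 12.31 to 9.96, 9.88 and 10.02.

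Other large falls lay outside these groups. Pla2g5, a secreted phospholipase A2, was 10.65, 10.77 and 10.81 at P21 and 7.05, 7.29 and 6.95 at P56, a fall of 3.65 (SE 0.09, limma adjusted p 8.23e-14), or 12.5-fold. Unlike Glra1 or Sst, it stood at much the same level at P7 (10.52), P15 (10.92) and P21 (10.74). Limch1, an actin-binding protein, fell by 2.80, Sytl2, which tethers secretory vesicles, fell by 2.83, Gsn, the actin-severing protein gelsolin, by 2.64 and Tmod1, which caps actin filaments, by 2.47. Uts2, the peptide urotensin 2, went from 9.97, 10.14 and 9.88 to 7.23, 7.82 and 7.49, a change of -2.48.

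**Figure D3:**
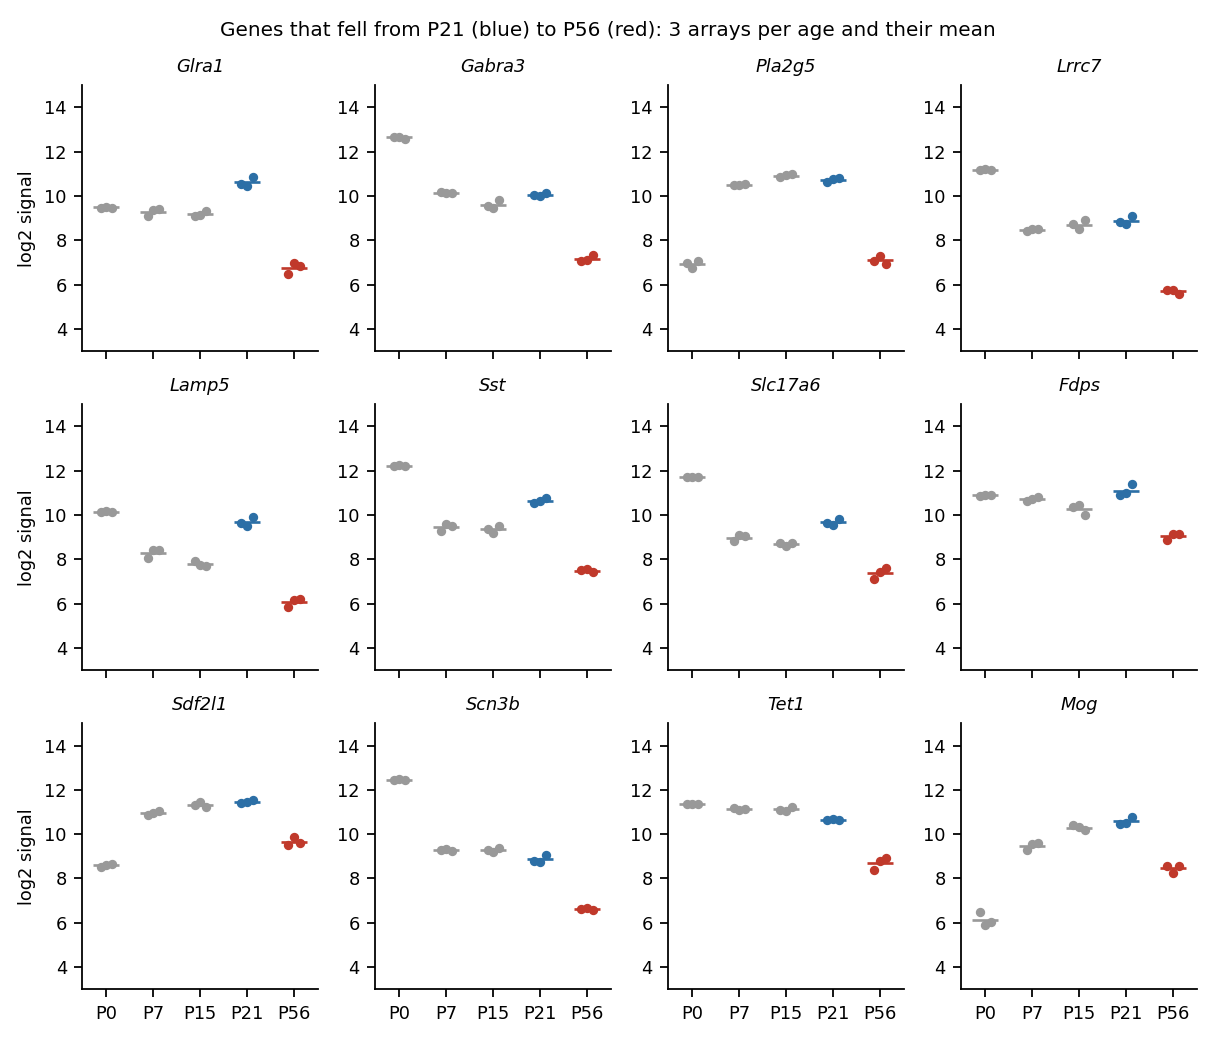
Log2 signal of 12 genes that fell from P21 to P56, 1 point per array at each age with the mean as a line (P21 blue, P56 red, earlier ages grey). Glra1, Lamp5, Sst and Slc17a6 were higher at P21 than at P15, whereas Pla2g5 was near 10.7 at P21 and 10.9 at P15.

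The unfolded protein response is the programme by which cells raise chaperones and degradation factors of the endoplasmic reticulum when secretory load is high. Its sensors Ern1, Atf6 and Eif2ak3 act through the factors Xbp1, cleaved Atf6 and Atf4. Several chaperone promoters carry an ER stress element, in which the letters CCAAT and CCACG stand 9 bases apart. Promoters of the list were read from the RefSeq table (GRCm38.p6), 250 bases before each start, on both strands, for 26 of 29 measured genes. Each gene was counted once, as matched if any of its promoters held the element. The element matched in 9 of the 26 (34.6%), against 20 of the 15302 measured genes with a promoter (0.131%). This motif was added to the search after the values had been seen. Among all genes lower by at least 1 the element matched in 2 of 866 genes with a promoter (0.231%). The matched windows of the 9 genes are given here, and they belong both to genes that fell and to genes that were not called. Each is 67 bases, 5′ to 3′ on the strand of the gene, with both letter groups of the element in capitals, and CGTGG and ATTGG are the same groups read from the other strand.
Creld2, chr15:88819496-88819562, plus strand: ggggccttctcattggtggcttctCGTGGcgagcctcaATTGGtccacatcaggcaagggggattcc
Derl3, chr10:75893218-75893284, plus strand: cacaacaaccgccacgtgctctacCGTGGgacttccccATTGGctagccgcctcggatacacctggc
Canx, chr11:50325776-50325842, minus strand: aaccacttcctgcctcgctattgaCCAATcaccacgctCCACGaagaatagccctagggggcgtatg
Hspa5, chr2:34772001-34772067, plus strand: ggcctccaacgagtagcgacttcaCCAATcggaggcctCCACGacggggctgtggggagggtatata
Syvn1, chr19:6046508-6046574, plus strand: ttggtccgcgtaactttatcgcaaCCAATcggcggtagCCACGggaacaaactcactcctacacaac
Dnajc3, chr14:118937803-118937869, plus strand: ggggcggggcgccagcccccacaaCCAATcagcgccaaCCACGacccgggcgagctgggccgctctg
Pdia6, chr12:17266467-17266533, plus strand: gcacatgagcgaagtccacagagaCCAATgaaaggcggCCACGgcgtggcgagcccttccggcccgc
Calr, chr8:84847051-84847117, minus strand: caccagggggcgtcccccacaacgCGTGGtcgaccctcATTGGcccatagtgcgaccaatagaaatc
Hsp90b1, chr10:86705614-86705680, minus strand: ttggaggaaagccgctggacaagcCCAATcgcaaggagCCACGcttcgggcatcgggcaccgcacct

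Of the 29 measured genes of this response, 23 fell and 3 rose, with a median change of -0.70. Sdf2l1, a partner of endoplasmic reticulum chaperones, was 11.40, 11.47 and 11.54 at P21 and 9.53, 9.86 and 9.59 at P56, a fall of 1.81 (SE 0.09, limma adjusted p 3.24e-11) with no overlap. Edem1, which sends misfolded glycoproteins to degradation, fell by 1.39, Derl1, a channel of the same route, by 1.11, and Dnajb9, a co-chaperone, by 1.06. Among the genes whose promoter held the element, Creld2, a secreted chaperone, went from 9.90, 9.79 and 10.23 to 8.87, 8.88 and 8.82, a fall of 1.12. Calr, the chaperone calreticulin, fell by 0.86, Derl3, another degradation factor, by 0.81, Canx, calnexin, by 0.72, Hspa5, the main chaperone BiP, by 0.53, Syvn1, a ubiquitin ligase, by 0.51 and Dnajc3 by 0.37. Pdia6, a disulphide isomerase, at 9.86 and 9.94, and Hsp90b1, the chaperone GRP94, at 11.23 and 11.18, were not called. The Hsp90b1 promoter holds a second match, starting at base -107 from the start site, outside the window printed. A match of letters is a description and not a site of binding.

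The factors of the response moved in both directions. Xbp1 fell by 0.75, Atf6 by 0.59 and the sensor Ern1 by 0.87. Atf4 rose by 0.49. Of genes known as its targets, Ddit3 and Trib3 rose by 0.57 and 0.34, while Asns, asparagine synthetase, and Chac1, a glutathione-degrading enzyme, had changes of -0.70 and -0.57 (limma adjusted p 3.81e-07 and 7.44e-05).

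Most genes of the cholesterol synthesis list fell, with 19 of 23 measured genes lower and 1 higher and a median of -0.69. Beside enzymes the list holds regulators of the pathway and a cholesterol exporter. Srebf2, the factor that switches the pathway on, fell from 10.10, 10.20 and 10.43 to 9.02, 8.93 and 9.04, by 1.25 (SE 0.08, limma adjusted p 6.58e-10). Hmgcs1, at the start of the pathway, fell by 0.73. Fdps, which makes farnesyl diphosphate, was 10.91, 11.01 and 11.39 at P21 and 8.89, 9.13 and 9.16 at P56, a fall of 2.04 or 4.11-fold with no overlap. The squalene enzymes Sqle and Lss fell by 1.43 and 1.66, Nsdhl by 1.46 and Dhcr7, at the last step, by 0.69. Pmvk, a kinase of the mevalonate section, rose by 0.62. A sterol element spelled TCACCCCAC matched in 1 of the 19 listed genes with a promoter (5.26%), Hmgcs1, against 0.595% of all measured genes with a promoter. The matched window is shown with the match in capitals.
Hmgcs1, chr13:119690190-119690246, plus strand: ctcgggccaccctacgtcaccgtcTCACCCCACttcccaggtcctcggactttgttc

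Chromatin genes moved in both directions, and the medians of the DNA methylation and Polycomb lists turned positive (0.11 and 0.01) with array medians set to 0, with splits of 9 higher and 6 lower and of 12 and 10. Of 24 genes of DNA methylation 11 fell and 5 rose, near the shares of all genes. Tet1, which oxidises methylcytosine, was 10.63, 10.69 and 10.65 at P21 and 8.38, 8.77 and 8.91 at P56, and its fall differed from its change between P7 and P15 by -1.98 (limma adjusted p 8.9e-09). Of 32 Polycomb genes 16 fell and 7 rose. Pcgf6, a ring finger protein of a Polycomb complex, fell by 1.80 and Ezh2, the methyltransferase, by 1.14. Setdb1, a methyltransferase of H3K9, fell by 1.73 and Smarca1, a remodeller, rose by 1.23. Among proteasome genes 18 rose and 14 fell out of 40, with a median of 0.03 that was between -0.024 and -0.002 without any one of P21 replicate 1, P21 replicate 2, P56 replicate 1 or P56 replicate 3. Core subunits lay on both sides: Psmb5 fell from 12.98, 12.99 and 12.74 to 10.88, 10.69 and 10.73 and Psmb3 by 1.93, while Psma7 rose by 1.25 and Psma4 by 1.08.

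Genes of translation and respiration were called higher more often than lower. Of 80 cytosolic ribosomal protein genes listed, 41 were measured with a probe set of their own symbol. Of these 41, 26 were called higher, against 21.1% of all genes, and 7 lower, with a median of 0.39. Their mean level was 11.10 at P7, 10.81 at P15, 10.70 at P21 and 11.18 at P56, so the P56 level was near that of P7. Rps12, of the small subunit, was 9.79, 9.70 and 9.68 at P21 and 12.45, 12.33 and 12.17 at P56, a rise of 2.59 (SE 0.09, limma adjusted p 1.19e-12), or 6.03-fold. Rps21 rose by 2.54, Rps29 by 1.96, Rps3a1 by 1.52 and Rpl23 by 1.49. Several of these genes have near-identical pseudogenes that a probe can also read. Of 43 translation factors 19 rose and 11 fell, among them the cap-binding Eif4e (1.07) and Eif3a (1.23).

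In the respiratory chain, 17 of 35 genes of complex I rose and 9 fell, with a median of 0.15, and in complexes II to V 18 of 40 rose and 11 fell, with a median of 0.12. Cox17, which delivers copper to cytochrome oxidase, was 9.19, 9.11 and 9.01 at P21 and 12.06, 12.18 and 12.02 at P56, a rise of 2.99 (SE 0.10, limma adjusted p 7.74e-13) with no overlap. Ndufs5 went from 10.38, 10.42 and 10.33 to 12.33, 12.12 and 12.21, a rise of 1.84, and Ndufa12 and Ndufa1 rose by 1.69 and 1.53. Micos10, which shapes mitochondrial cristae, rose by 2.31. Of 20 enzymes of the tricarboxylic acid cycle 6 were higher and 8 lower (9 and 3 with array medians set to 0), and Got2 and Cs, citrate synthase, fell by 0.73 and 0.40.

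Further genes with large rises were of mixed kind. Usp17ld, a deubiquitinase, went from 6.04, 6.05 and 6.04 to 10.31, 9.76 and 9.95, a rise of 3.96. Pttg1, securin, rose by 2.65 and Lamtor2, of the lysosomal nutrient sensor, by 1.85. Mt1, a metallothionein, was 11.53, 11.54 and 11.17 at P21 and 12.68, 12.73 and 12.64 at P56, a rise of 1.27. Tns1, an adhesion protein, rose by 2.17 in the probe set that stood for it, but the mean of its probe sets rose by 0.04 and was not called (limma adjusted p 0.715). Glucocorticoid and thyroid response genes fell in 14 of 22 cases, with Pdk4, a pyruvate dehydrogenase kinase, going from 8.76, 8.48 and 8.86 to 6.34, 6.50 and 6.52. Of 40 activity-regulated genes 23 fell and 3 rose, when 35.1% of all genes were lower and 21.1% higher. With array medians set to 0, 17 were lower and 13 higher, when 23% of all genes were lower and 49.3% higher. The orphan receptors Nr4a2 and Nr4a1 fell by 1.96 and 1.66 and Npas4 by 1.33, while Ier2 rose by 1.15.

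The largest change of all belonged to a small RNA. Rny1, a Y RNA that binds the Ro protein, was 5.59, 4.57 and 6.45 at P21 and 13.13, 12.11 and 12.78 at P56, a rise of 7.14 (SE 0.32, limma adjusted p 1.96e-11). Its P21 mean of 5.54 was below the lower quartile of the P21 arrays (5.93), where a signal is not shown to be above background. Rny3, the other Y RNA, rose from 11.04, 11.07 and 12.11 to 14.08, 13.39 and 13.84, by 2.36. The mean level of both Y RNAs was 9.85 at P0, 7.79 at P7, 8.47 at P21 and 13.22 at P56.

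Small nucleolar RNAs, which guide the modification of ribosomal RNA, were higher in 33 of 49 cases and lower in 3, with a median of 0.44, though 20 were below the lower quartile at both ages. The mean level of these genes was 7.11 at P0, 5.75 at P7, 5.79 at P21 and 6.61 at P56, so the P0 level was above that of P56. Snord22 went from 5.15, 5.18 and 5.40 to 10.43, 9.38 and 10.14, a rise of 4.74, and Snord61 and Snord87 rose by 4.47 and 3.53. The P21 means of Snord22 (5.24), Snord61 (3.98) and Snord87 (4.34) were under the lower quartile of that age, so these sizes start from signals not shown to be above background. Snora73b rose by 2.93. The RNA components Rmrp of RNase MRP and Rpph1 of RNase P rose by 1.76 and 1.41, Rnu12 of the minor spliceosome by 2.18 and the 5S ribosomal RNA gene n-R5s136 by 3.91. Of 289 microRNA genes 134 were higher and 11 lower, 201 of the 289 being below the lower quartile at both ages. Their mean level was 5.91 at P0, 5.20 at P21 and 5.42 at P56. The microRNA split was 71 higher and 28 lower with the gene span trend removed, near the 25.7% of all genes higher under that setting, and 241 and 1 with array medians set to 0. Histone genes, gathered by the H1 to H4 symbols after values were seen and whose messages mostly lack a poly(A) tail, were higher in 15 of 29 cases and lower in 6, with H4c3 rising by 1.84, H4c14 by 1.22 and H1f2 falling by 1.34.

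Of the 430 probe sets higher by at least 1, 105 were not listed in the annotation and 82 shared their values exactly with another probe set, which left 360 distinct profiles. An unlisted profile shared by 33 probe sets had means of 12.34 at P0, 5.83 at P7, 7.02 at P21 and 10.66 at P56. In genes of other tissues, 254 of 1020 olfactory receptors were called higher and 21 lower, with a median of 0.10 (-0.004 after quantile normalization), and 948 of the 1020 lay below the lower quartile at both ages. The olfactory split was 833 higher and 3 lower with array medians set to 0 and 125 and 81 with the gene span trend removed.

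**Figure D4:**
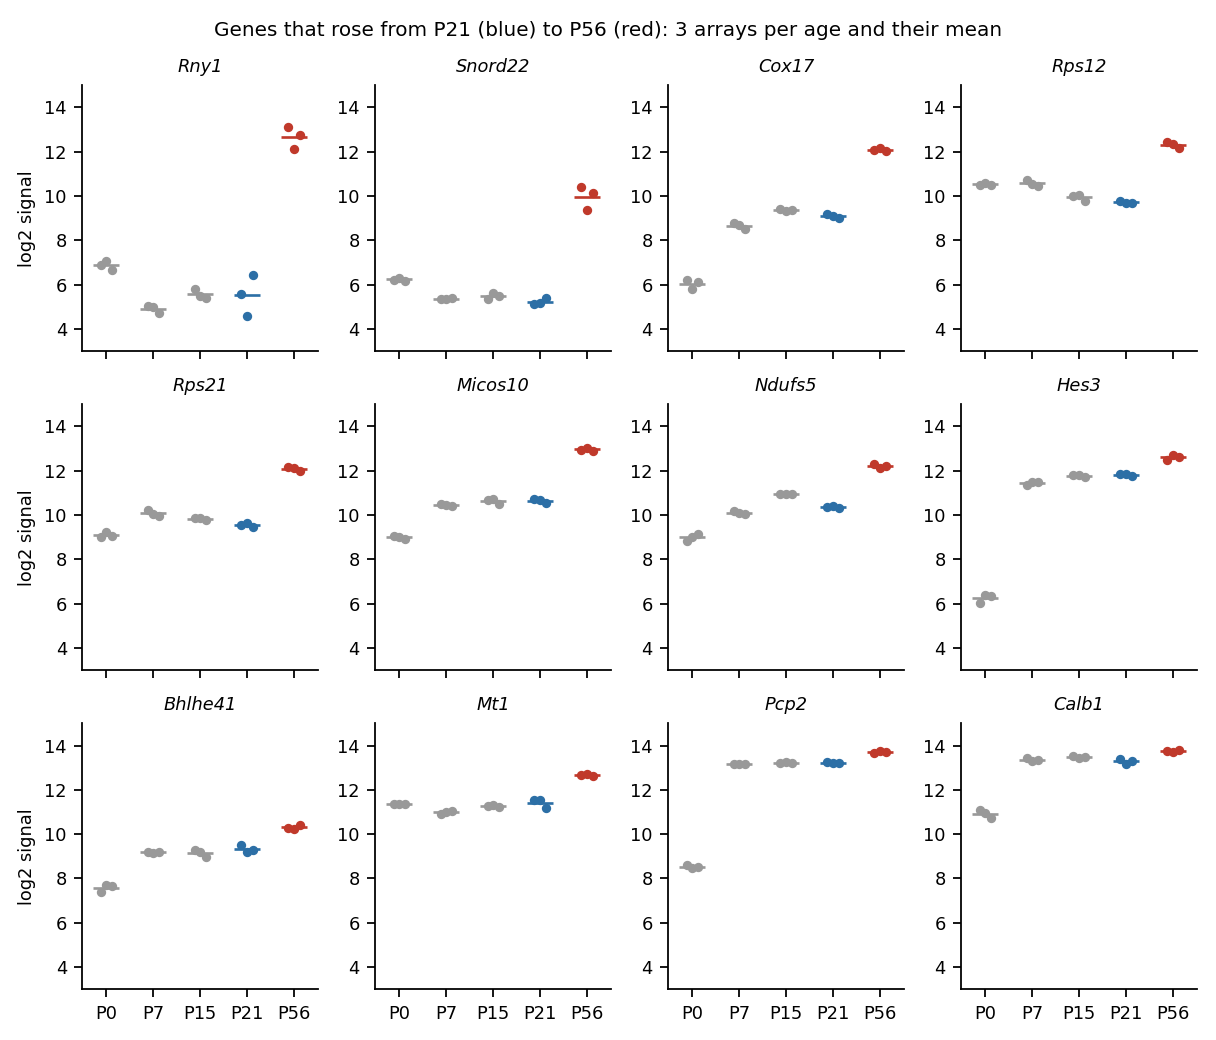
Log2 signal of 12 genes that rose from P21 to P56, drawn as for the falls (1 point per array, line at the mean, P21 blue and P56 red). The small RNAs Rny1 and Snord22 rise from near the bottom of the scale, Cox17 and Rps12 from about 9 to about 12, and Pcp2 and Calb1 by 0.48 and 0.47 near the top.

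The change also followed the span of the gene, from its first to its last base in RefSeq. Over 14514 genes at or above the lower quartile at P21, without olfactory and vomeronasal receptors, the median change was 0.04 in the 1452 genes of shortest span (up to 3.71 kb) and -0.33 in the 1452 of longest span (above 132 kb). The step from P15 to P21 showed medians of -0.03 and 0.04 in those groups, and the step from P7 to P15 medians of 0.03 and 0.00. From P0 to P7 the medians also ran downward with span, from 0.15 in the shortest group to -0.31 in the longest. Relative to the median of genes of like span, the median was -0.61 for cholesterol synthesis, -0.63 for the unfolded protein response, -0.56 for inhibitory receptors, -0.40 for axon guidance, 0.32 for ribosomal proteins and 0.23 for Purkinje cell markers. For Purkinje cell transcription factors it was 0.11, against -0.11 as deposited. Removal of the span trend from every array left 47% of called probe sets higher.

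**Figure D5:**
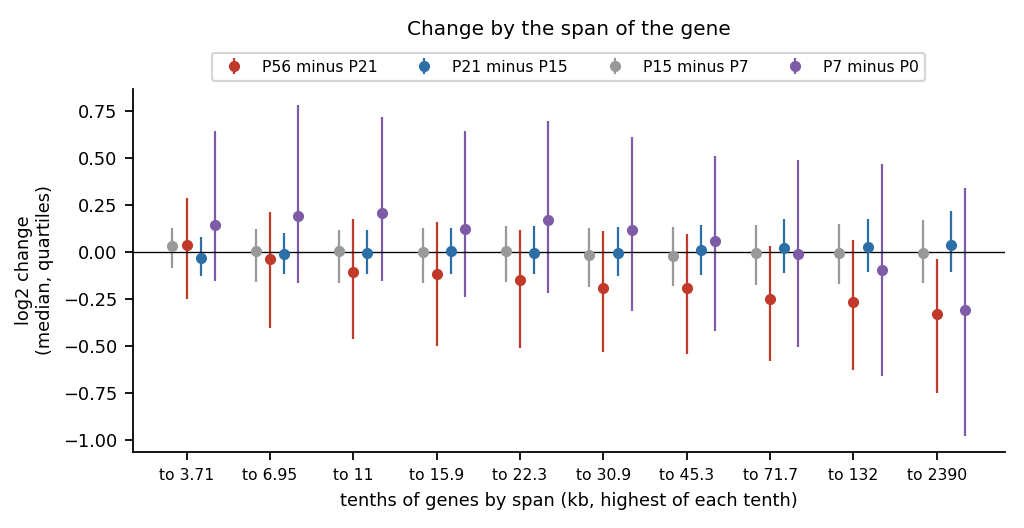
Median log2 change with quartiles (bars) in 10 equal groups of 14514 genes by gene span, for the step from P21 to P56 (red), P15 to P21 (blue), P7 to P15 (grey) and P0 to P7 (purple). The red medians run from 0.04 in the group of shortest span to -0.33 in that of the longest, those of the first week (purple) from 0.15 to -0.31, and the blue and grey medians lie within 0.04 of 0.

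The step was set against an earlier one that shares no array with it, P7 to P15, which is shorter in days. The difference of the steps was called for 44.9% of genes. For Pla2g5 it was -4.06 (limma adjusted p 6.82e-12), for Glra1 -3.77 and for Mog -2.95, as Mog stood at 9.47 at P7 and 10.30 at P15. For Cox17 it was 2.28 (limma adjusted p 1.68e-09) and for Rps12 3.23. Dcx, a microtubule protein of migrating neurons, fell by 1.30 from P21 to P56 and stood at 10.69 at P7 and 9.59 at P15, and the difference of the steps was not called (-0.20, limma adjusted p 0.157). Nor was it called for Tubb2b, a tubulin (difference 0.23), and Aldh1l1, a folate enzyme of astrocytes (difference -0.06).

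Xist, transcribed in female cells, was 5.81 to 6.28 over the 6 arrays and not called, whereas the Y-linked Eif2s3y was 8.56 to 8.95 at P21 and 8.01 to 8.17 at P56 and Kdm5d 7.51 to 7.81 and 7.07 to 7.10. Uty, also Y-linked, was 7.74 to 8.06 at P21 and 7.75 to 8.10 at P56 and was not called.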

How the data were processed

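The authors deposited 1 normalized log2-scale signal for each probe set and array. Affymetrix Power Tools was used, per the submitters' processing notes. Neither algorithm nor version is given in the sources used here, and base 2 was taken from the range of the values. The number of arrays limits the precision. Genes were named from the platform annotation of 2016: 20996 probe sets had 1 symbol, 91 several and 1005 were not listed. Where a gene had several probe sets, the brightest on average over all arrays was used.

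One limma model (limma 3.58.1, R 4.3.3) with a mean per age was fitted to all 15 arrays, P56 minus P21 was tested, and Benjamini-Hochberg adjusted p under 0.05 over 22092 probe sets was called. The script was tested on simulated data. Figures were drawn with matplotlib 3.10.9.

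Named genes were the 25 largest rises and 25 largest falls among called genes without overlap between the ages and whose higher mean reached the lower quartile, up to 6 called members of each list and 4 of each family with the largest change, all Purkinje cell markers, Pcp2 and Rpl10a; predicted genes, small RNAs and chemosensory receptors were left out of the largest. Members and lists were chosen with earlier results of these data known. Same-numbered P21 and P56 arrays had correlations of deviations of -0.197, 0.033 and 0.11, so the numbers were not taken as pairs. Alternatives were other scalings, fits, weights, priors, filters, probe set rules, a replicate block, each array left out in turn and, chosen after seeing the data, removal of a gene span trend and identical probe sets counted once.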

Additional observations from a re-analysis of the deposited data

How the results depend on the processing

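As deposited 12464 probe sets were called. The count was 12153 after quantile normalization, 15963 with array medians set to 0, 10224 with only the P21 and P56 arrays, 8414 with the dimmest 50% removed, 12409 with the replicate block and 11334 to 12489 with 1 array left out. With array medians set to 0, 11028 were higher and 4935 lower, and past a change of 1 the counts were 694 and 657. Quantile normalization left 731 lower by at least 1. With the dimmest 50% removed 2295 were higher, against 4893 as deposited, and 6119 were lower, against 7571. By mean level, the median change was 0.117 in the 1950 dimmest genes (3.315 to 4.77). It was -0.2 in the 1950 brightest (10.93 to 13.68). The part of level in the lost calls was not tested. With 1 probe set per gene 240 were higher by at least 1. At a change of 0.5 the counts were 1557 higher and 4273 lower. Without 1 array, 4105 to 5192 were higher, 7191 to 7515 lower, 421 to 449 higher by at least 1 and 1157 to 1319 lower by at least 1. The difference of steps was called for 10006 probe sets (9357 to 10218 without 1 array, 9907 with the replicate block) and P56 minus P15 for 12372 (11850 to 12612, and 12320). The replicate block changed the call of 1 of 364 named genes, Plcb3.

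Signs changed for some small values. Array medians set to 0 gave Aldoc 0.20, Slc1a6 0.19, Rpl10a 0.15, Homer3 0.14, Plcb3 0.09, Icmt 0.0746 and Nefh 0.0223. Quantile normalization gave Rgs8 -0.0011 and Slc1a6 0.027. With 1 array left out Foxp2 ran from -0.0626 (without P56 replicate 2) to 0.1078, with -0.036 without P21 replicate 3, and Slc1a6 from -0.1202 to 0.0204 (without P56 replicate 2). Removal of the span trend gave Slc1a6 0.039. List medians that turned with array medians set to 0 were 0.123 for Purkinje cell transcription factors (0.065 with the span trend removed), 0.061 for zebrin genes, 0.094 for IP3 signalling, 0.059 for clock genes, 0.144 for heat shock genes, 0.111 for DNA methylation, 0.011 for Polycomb, 0.098 for chromatin remodelling, 0.142 for the tricarboxylic acid cycle, 0.004 for granule cell progenitors, 0.049 for astrocytes, 0.051 for endothelial cells, 0.115 for mural cells, 0.077 for red blood cells and 0.185 for antigen presentation (-0.067 to 0.002 with 1 array left out, the latter without P21 replicate 3). Quantile normalization gave 0.014 for heat shock, 0.026 for Polycomb, 0.08 for chromatin remodelling, 0.023 for granule cell progenitors and -0.004 for olfactory receptors. The proteasome median was -0.005 with the dimmest 50% removed and -0.024 to 0.056 with 1 array left out, below 0 in 4 of the 6 cases. The cause of these changes was not tested.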
